A study of Drosophila melanogaster with 2 samples.

Results

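Medulla neuroblasts (NBs), the neural stem cells of the outer proliferation center of the fly optic lobe, were compared by their level of S-phase genes. In each library the NBs were ranked by the summed level of PCNA, RnrL, RnrS, Mcm2 and Mcm5, and the 25% of NBs with the highest sum (S-high NBs) were set against the 25% with the lowest sum (S-low NBs). An NB was a cell with at least 1 dpn UMI (unique molecular identifier, the count of 1 captured transcript) and at least 1 mira UMI, less than 10% of its UMIs on mitochondrial genes, at least 5000 UMIs and less than 500 CPM of gcm (CPM, the UMIs of a gene per 1000000 UMIs of the cell or sum), and the 5 deepest cells were dropped. Of 11891 cells in the series 2171 met this rule, 435 in experiment 1 and 1736 in experiment 2. S-high NBs numbered 543 (109 and 434) and S-low NBs 542 (108 and 434). Larvae of both experiments were at the wandering stage of the third instar, raised at 25 °C and given no treatment, with the brains of 120 larvae pooled in each. All carried the NB reporter E(spl)mgammaGFP and, over the balancer TM6B, the driver SoxNGal4 with the red nuclear reporter UAS-RedStinger. Cells positive for both the green NB reporter and the red reporter, which SoxNGal4 drives in medulla cells, were sorted, and each experiment gave a single 10x Genomics Chromium 3' library. S-high and S-low NBs thus share genotype, treatment, larvae and library, and the 2 libraries are the replicates.

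A cycling NB licenses its replication origins by loading the MCM helicase, fires them as Cyclin E/Cdk2 and Cdc7 become active, and copies its DNA with the polymerases alpha, delta and epsilon and the sliding clamp PCNA. The transcription factor E2f1 with Dp drives many of these genes, so their transcripts accumulate around the G1/S transition and in S phase. Medulla NBs also age through a sequence of temporal transcription factors, from hth through ey, the slp genes and D to B-H1 and tll, with gcm at the final stage. NBs of all ages and all cell cycle phases lie side by side in the larval brain. The limit on gcm left out NBs high in that gene, so tll stands for the oldest stage compared here.

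The 5 genes of the score chose the NBs, so their values are a description and were not tested. The score ran from 0 to 5512 CPM in experiment 1, with a median of 1468 CPM. In experiment 2 it ran from 28.0 to 6299 CPM, with a median of 1860 CPM. The distribution had 1 broad peak and no gap at the limits, apart from a small group near 0. The last S-low NB of experiment 1 scored 1078 CPM and the next NB above it 1081 CPM, and the first S-high NB scored 2023 CPM against 2008 CPM just below it. In experiment 2 the corresponding values were 1338 and 1343 CPM at the lower limit and 2546 and 2545 CPM at the upper limit. NBs next to a limit were thus almost alike on the 2 sides of it.

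**Figure D1:**
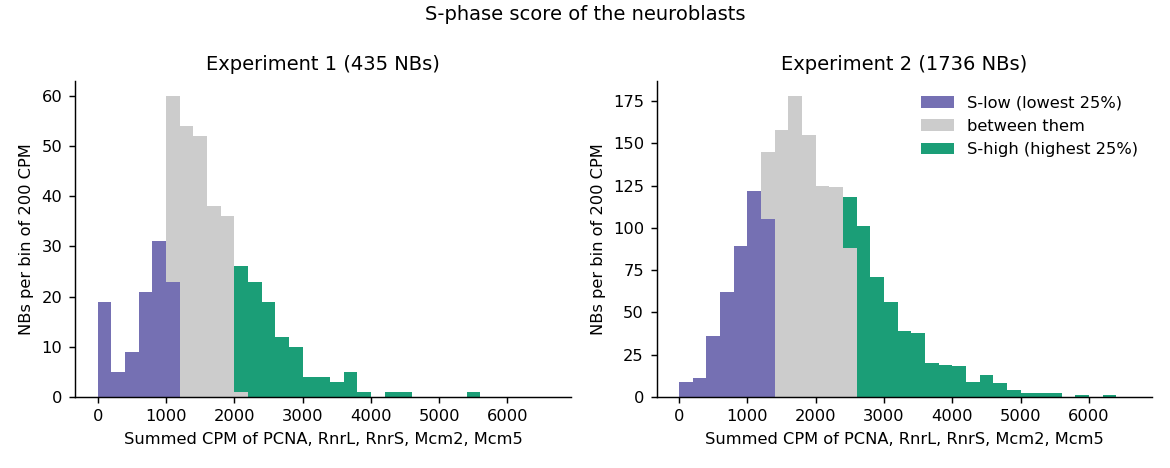
Histogram of the S-phase score, the summed CPM of PCNA, RnrL, RnrS, Mcm2 and Mcm5 (x axis, bins of 200 CPM), against the number of NBs (y axis) in experiment 1 (left, 435 NBs) and experiment 2 (right, 1736 NBs). S-low NBs are violet, S-high NBs green and the NBs between them grey, stacked; 19 S-low NBs of experiment 1 lie below 200 CPM.

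RnrS, the small subunit of ribonucleotide reductase, which makes deoxyribonucleotides, took 90.8 CPM in S-low and 601 CPM in S-high NBs of experiment 1, and 111 and 758 CPM in experiment 2. RnrL, the large subunit, took 101 and 310 CPM in experiment 1, while experiment 2 gave 112 and 380 CPM. PCNA went from 375 to 1103 CPM and from 478 to 1305 CPM. The S-high value lay above the S-low value of both libraries for each of these genes, and likewise for the MCM subunits Mcm2 (81.9 to 229 CPM and 108 to 279 CPM) and Mcm5 (130 to 329 CPM and 182 to 435 CPM). When NBs were chosen on 50% of their UMIs and measured on the rest, the fold was 5.58 instead of 6.45 for RnrS, 2.69 instead of 3.11 for RnrL and 2.38 instead of 2.71 for PCNA. Cells with no dpn or mira UMI, which show the level outside NBs, summed to 252 CPM of the 5 genes in experiment 1 (255 cells, median 2513 UMIs) and 132 CPM in experiment 2 (663 cells, median 6054 UMIs). The median S-low NB held 792 and 1006 CPM, above that level, so that most S-low NBs were low but not free of these transcripts.

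The libraries hold 42618478 UMIs in experiment 1 and 116712060 in experiment 2, and no cell barcode was shared between the NBs of the 2 libraries. Over 4 score groups of equal size, from S-low to S-high, the median depth was 15396, 23755, 28382 and 25549 UMIs in experiment 1. Experiment 2 gave 45664, 59659, 57214 and 38963 UMIs. S-high NBs were thus deeper than S-low NBs in experiment 1 and shallower in experiment 2. In both libraries S-low and S-high NBs were shallower than the group next below the S-high NBs. The same S-low and S-high NBs, each thinned to 5000 UMIs, had median scores of 800 against 2400 CPM and 1000 against 3200 CPM. The thinned UMIs are a part of those that chose the groups. These medians are therefore a description, and they cannot show what part depth had in the choice. The mitochondrial share differed little, with medians of 4.67% and 4.32% in experiment 1 and 5.08% and 4.59% in experiment 2. The limit on the mitochondrial share removed most dpn and mira cells of experiment 1, from 2830 to 660, and few of experiment 2, from 2254 to 2106. S-low NBs included cells with over 1000 CPM summed over 7 neuron genes (fne, nSyb, brp, Syt1, Sh, beat-IIIc and para). They numbered 20 of 108 (18.5%) in experiment 1 and 8 of 434 (1.84%) in experiment 2. Among S-high NBs they were 0 of 109, which allows a share of up to 2.75%, and 1 of 434. Of the 19 S-low NBs of experiment 1 that scored below 200 CPM, 13 were such cells. Of the 6 glia markers repo, moody, alrm, wrapper and Gs2 were at or near 0 in both groups, as were the haemocyte markers. The sixth glia marker, nrv2, a sodium pump subunit gene, took 263 and 332 CPM in S-low and S-high NBs of experiment 1, with 324 and 381 CPM in experiment 2.

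UMIs were summed per library and group and tested in edgeR with its quasi-likelihood test and the library as a block, and p-values of the 7210 genes tested were adjusted by the Benjamini-Hochberg method. At an adjusted p under 0.05, 1035 genes were higher in S-high NBs (14.4% of those tested) and 1203 were lower (16.7%). The higher genes moved by small amounts, 115 of them by at least 2-fold, whereas 555 of the lower genes did. Of the higher genes 1028 had the same direction in both libraries, and of the lower genes 1081. The median log2 fold change over all genes tested was -0.03. The count depends on the model, with 76 genes higher and 47 lower without the library block and 304 and 472 in DESeq2, and the summed counts do not tell more NBs with a transcript from more transcripts per NB.

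The DNA replication genes outside the score were higher almost without exception. Of 53 genes in 4 lists of replication proteins 51 were tested, and 49 were called higher and 0 lower, beside 14.4% higher among all genes. Their median log2 fold change was 1.13, or 2.19-fold, and 33 of them differed by at least 2-fold. Without the library block 28 were called, with the same median to within 0.01. S-high exceeded S-low in both libraries for 50 of the 51. The levels also rose stepwise, since 44 of the 51 increased at each step over 4 score groups of equal size, from S-low to S-high, in both libraries, a pattern that 9.21% of all genes tested showed.

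**Figure D2:**
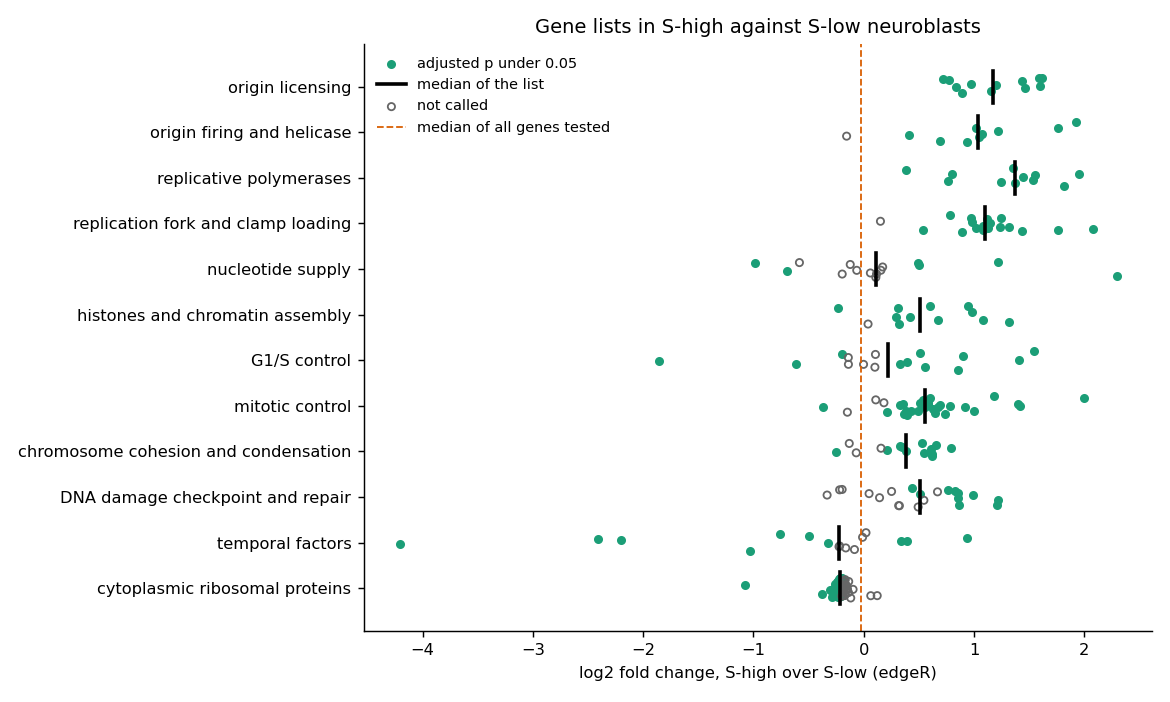
Log2 fold change of S-high over S-low NBs (x axis, edgeR) for the tested members of 12 gene lists (y axis), score genes left out; points are spread vertically for visibility. Filled points passed an adjusted p under 0.05, open points did not, black bars are list medians and the dashed line is the median of all 7210 genes tested. The 4 replication lists lie almost wholly to the right, with medians from 1.03 to 1.37.

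All 12 tested genes of origin licensing were higher, with log2 fold changes from 0.72 to 1.62. The origin recognition complex marks the origins, and its subunit Orc1 took 38.2 CPM in S-low and 122 CPM in S-high NBs of experiment 1, and 41.1 and 132 CPM in experiment 2 (log2 fold change 1.62 ± 0.09 SE, edgeR adjusted p = 2.25e-37). The loading factor dup, the fly Cdt1, went from 101 to 298 CPM and from 105 to 349 CPM (1.60 ± 0.08). Both S-high values stood clear of both S-low values for each gene. Orc6 (1.59), Orc5 (1.46), Orc2 (1.44) and the loader Cdc6 (1.20) differed by more than the MCM subunits outside the score, Mcm3 (1.15), Mcm6 (0.97), Mcm7 (0.84) and the Mcm4 gene dpa (0.72). Geminin, which blocks relicensing by binding Cdt1 once S phase has begun, was also higher, with 249 and 451 CPM in experiment 1, while experiment 2 gave 256 and 451 CPM (0.78 ± 0.08, edgeR adjusted p = 1.78e-15). Orc3 had 0 UMIs in all 4 sums.

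Of 10 genes of origin firing and the active helicase 9 were higher. Mcm10, which activates the helicase, went from 21.7 to 78.9 CPM in experiment 1 and from 20.4 to 83.3 CPM in experiment 2 (1.92 ± 0.11, edgeR adjusted p = 1.38e-37). The GINS subunits, partners of the moving helicase, were higher by 1.77 (Sld5), 1.07 (Psf1), 1.05 (Psf2) and 0.69 (Psf3) on the log2 scale, and the helicase cofactor CDC45L by 1.22. Cdc7, the kinase that fires origins, differed least of the called genes (34.4 to 45.2 CPM and 28.0 to 40.0 CPM, 0.41 ± 0.12, edgeR adjusted p = 0.00269). Its regulatory partner chif, the fly Dbf4, was the gene of this list that was not called, with 151 and 140 CPM in experiment 1, while experiment 2 gave 141 and 133 CPM (-0.16, edgeR adjusted p = 0.142). It was called lower in the alternative that left out the cells with neuron genes and in that with at least 3 dpn and mira UMIs.

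The 11 genes of the replicative polymerases were all higher. Polymerase alpha with its primase begins each strand, and 3 of its 4 subunits differed by more than 1.5 on the log2 scale, DNApol-alpha73 (1.95), DNApol-alpha60 (1.82) and DNApol-alpha50 (1.54), while the catalytic DNApol-alpha180 differed by 0.80. DNApol-alpha73 went from 11.7 to 46.8 CPM in experiment 1 and from 18.3 to 74.0 CPM in experiment 2. The catalytic subunits of polymerase delta (DNApol-delta, 1.45) and epsilon (DNApol-epsilon255, 1.24) were higher as well. Mes4 (0.38) and Chrac-14 (0.77), small accessory subunits with histone folds, of which Chrac-14 is also part of a chromatin remodelling complex, had the smallest differences of this list.

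At the fork and in clamp loading 17 of 18 tested genes were higher. Claspin, the checkpoint mediator that travels with the fork, went from 92.2 to 254 CPM in experiment 1 and from 48.7 to 206 CPM in experiment 2 (1.76 ± 0.09, edgeR adjusted p = 5.09e-42), and Ctf4, which ties the helicase to polymerase alpha, from 11.01 to 44.6 CPM and from 11.8 to 53.5 CPM (2.08 ± 0.14). The clamp loader genes Gnf1 (0.89), RfC3 (1.24), RfC4 (1.08) and RfC38 (1.12) and the single-strand binding subunits RpA-70 (1.13), RPA2 (0.98) and RPA3 (0.54) were higher. So were Fen1 (1.24) and DNAlig1 (1.32), which trim and seal Okazaki fragments. Top2, the topoisomerase that untangles the copied DNA, was not called, with 495 and 559 CPM and 421 and 499 CPM (0.15, edgeR adjusted p = 0.167). PCNA2, a second PCNA gene, fell under the filter on low counts, with at most 1.38 CPM.

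The gene dnk encodes deoxyribonucleoside kinase, which salvages DNA precursors, and it showed the highest log2 fold change among the genes outside the score that were named for the size of their change, from 72.6 to 404 CPM in experiment 1 and from 103 to 497 CPM in experiment 2 (2.29 ± 0.09, edgeR adjusted p = 8.68e-57). Thymidylate synthase Ts (1.22), dUTPase (0.50) and CTPsyn (0.49) were higher. These are steps towards DNA precursors, except that CTP synthase also serves RNA. Of the genes that make purine and pyrimidine bases afresh for RNA and DNA alike, r-l (-0.98) and Paics (-0.69) were called lower and Prat, Pfas, Gart, ras and r were not called. The call of Paics rests on experiment 2 (32.0 and 17.3 CPM), since it took 19.3 and 19.0 CPM in experiment 1. In all, 4 of the 15 tested genes of nucleotide supply were higher and 2 lower, beside 14.4% and 16.7% of all genes, with a median of 0.11.

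Among genes of histones and chromatin assembly 10 of 12 were higher and 1 was lower, beside 14.4% and 16.7% of all genes. Slbp, the protein that binds the stem-loop of replication histone mRNAs, went from 114 to 295 CPM in experiment 1 and from 133 to 347 CPM in experiment 2 (1.32 ± 0.08, edgeR adjusted p = 4.18e-33). The subunits of CAF-1, which deposits histones behind the fork, were higher by 1.08 (Caf1-105), 0.95 (Caf1-180) and 0.68 (Caf1-55), and the histone chaperone asf1 by 0.99. The replacement histones His2Av (0.32), His3.3A (0.42) and His3.3B (0.29), which are made outside S phase too, passed the test with small differences, and none of these was called when the 25% shares were taken among NBs led by the same temporal factor, the one each NB expressed most relative to the mean of that factor in its library (0.10, 0.23 and -0.03; edgeR adjusted p = 0.52, 0.0839 and 0.894). Tlk, a kinase that acts on asf1, was lower (-0.24, edgeR adjusted p = 0.0196).

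The regulators of the G1/S step did not move as a block, with 8 of 16 higher and 3 lower. Among all genes 14.4% were higher and 16.7% lower, so that the lower count was near that share. CycE, the cyclin that starts S phase, was not called, with 1157 CPM in S-low and 1423 CPM in S-high NBs of experiment 1 and 1073 and 1094 CPM in experiment 2 (0.10 ± 0.08, edgeR adjusted p = 0.381). Its partner Cdk2 was higher (66.4 to 126 CPM and 81.2 to 153 CPM, 0.85). Over the 4 score groups CycE took 1157, 1252, 1169 and 1423 CPM in experiment 1, while experiment 2 gave 1073, 952, 963 and 1094 CPM, so that S-low NBs did not hold the least CycE in experiment 2. The Cyclin E/Cdk2 inhibitor dap, the fly member of the p21 and p27 family, was lower, from 127 to 19.6 CPM and from 51.4 to 20.3 CPM (-1.86 ± 0.12, edgeR adjusted p = 1.65e-32). Its high level was seen in S-low NBs alone, since the 4 score groups of experiment 1 held 127, 25.6, 15.1 and 19.6 CPM and those of experiment 2 held 51.4, 21.3, 21.4 and 20.3 CPM. The fall of dap remained without the cells with neuron genes (-1.73) and among NBs of the same leading factor (-1.78).

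The retinoblastoma genes Rbf (0.90) and Rbf2 (1.41), the repressor E2f2 (0.55) and the E2F partner Dp (0.51) were higher. So was l(2)dtl, the fly Cdt2, which marks Cdt1 for destruction during replication (1.54; 22.4 to 62.8 CPM and 23.8 to 74.5 CPM). E2f1 itself was slightly lower, with 2107 and 2032 CPM in experiment 1, while experiment 2 gave 1695 and 1446 CPM (-0.20, edgeR adjusted p = 0.0417), and it was not called within leading factors (adjusted p = 0.0896). CycD (-0.00), Cdk4 (0.11) and Cul4 (-0.14) were not called. The growth regulator Myc was lower (-0.61), although not within leading factors (-0.12, edgeR adjusted p = 0.314).

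**Figure D3:**
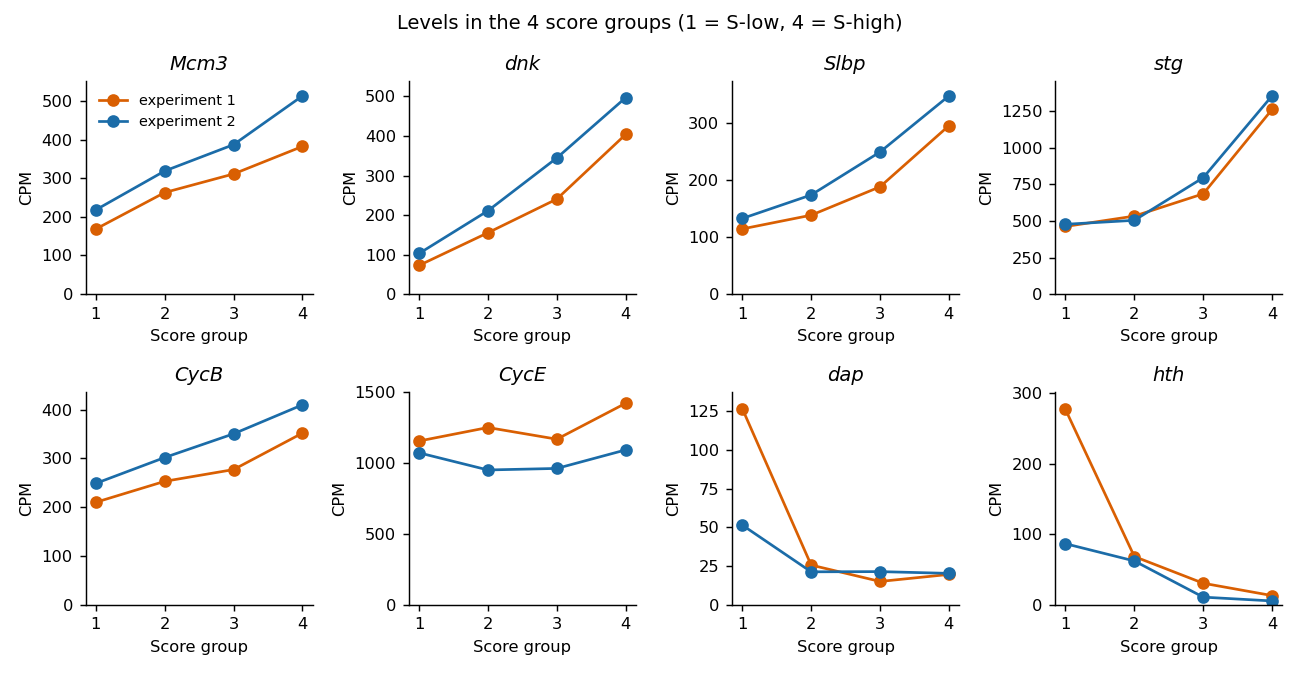
Level (y axis, CPM of the summed UMIs) of 8 genes over the 4 groups of the S-phase score (x axis, 1 the S-low and 4 the S-high NBs) in experiment 1 (orange) and experiment 2 (blue), 1 point per library and group. Mcm3, dnk, Slbp and CycB climb at each step, stg climbs most at the last step, CycE stays between 952 and 1423 CPM, and dap and hth are highest in S-low NBs.

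Genes of mitosis were higher together with those of replication, by smaller amounts. Of 31 genes of mitotic control 27 were higher and 1 was lower, beside 14.4% and 16.7% of all genes. Their median log2 fold change was 0.55. String (stg), the Cdc25 phosphatase that activates Cdk1 for entry into mitosis, went from 462 to 1263 CPM in experiment 1 and from 477 to 1356 CPM in experiment 2 (1.42 ± 0.08, edgeR adjusted p = 4.13e-35). The values of the 2 libraries were close, and most of the increase came at the last step, since the group next below the S-high NBs held 686 and 796 CPM. The related phosphatase gene twe was higher too (2.00), at 3.096 to 7.89 CPM and 3.04 to 14.7 CPM. The Cdk1 partners CycA (0.54), CycB (0.67) and CycB3 (0.54) and Cdk1 itself (0.63) were higher by like amounts.

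Within the mitotic genes, cid, the centromeric histone, was higher by 1.40 and the chromosomal passenger genes borr, aurB and Incenp by 1.18, 1.00 and 0.58. The kinases aurA (0.92) and polo (0.32) and the anaphase activator fzy (0.78) were higher. Bub1, a kinetochore kinase, was lower (-0.37, edgeR adjusted p = 0.011), and fzr, Cenp-C and Cks85A were not called (0.11, 0.18 and -0.15). Without the library block 4 of the 31 were called, and with every cell thinned to 5000 UMIs 8 of 30. Of 15 genes of cohesion and condensation 11 were higher, beside 14.4% of all genes. They were led by eco (0.79), which makes cohesion during replication, and Cap-D2 (0.66), while Cap-G was lower (-0.25).

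Single NBs showed the same overlap. The summed CPM of CycB, CycB3, polo, aurA and fzy was ranked within each library in the same way, and 43.1% of the S-high NBs of experiment 1 (exact binomial 95% interval 33.7% to 52.95%) and 56.0% of those of experiment 2 (51.2% to 60.7%) were in its top 25%. Of the S-low NBs 16.7% (10.2% to 25.1%) and 4.38% (2.66% to 6.75%) were. With all cells at 5000 UMIs these shares were 33.0% and 38.2% for S-high against 21.3% and 14.7% for S-low NBs. The interval of the S-high share lay above that of the S-low share in both libraries at full depth, and in experiment 2 alone at 5000 UMIs. These intervals cover counting error only. The names S-high and S-low thus stand for the rule, and the phase of a single NB was not measured.

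DNA damage and repair genes were called higher in 10 of 21 cases and lower in 0, beside 14.4% and 16.7% of all genes. Msh6 (1.22) and spel1 (0.99), which find mismatches behind the fork, Fancd2 (1.21), which acts at crosslinks, the recombinase spn-A (0.86), rad50 (0.86) and the helicase Blm (0.76) were higher. The checkpoint kinase lok was higher (0.82) and its fellow grp, the fly Chk1, was not called, with 244 and 255 CPM and 209 and 231 CPM (0.05, edgeR adjusted p = 0.702). The study's own list of S-phase genes holds 25 genes outside the score, of which 24 were tested and 22 were higher. CycE and Usp1 were the exceptions. Its list of 37 G2/M genes had 24 higher and 1 lower of 35 tested, with a median of 0.43.

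Genes were also named from the whole table by size of change, given 50 CPM or more in the group of higher level in both libraries. Besides dnk, Mcm10, Claspin, Orc1, dup and Orc6, the 12 genes with the highest log2 fold change included the PHD finger gene Phf7 (20.3 to 81.3 CPM and 22.4 to 107 CPM, 2.13 ± 0.10) and the centriole duplication gene ana2 (19.3 to 67.7 CPM and 22.8 to 97.2 CPM, 1.96 ± 0.11). CG9752 (1.93) and CG11164 (1.82), the chromatin remodeller Chd3 (1.57) and bora (1.56), an activator of Aurora A, completed them. Each was called in edgeR also within leading factors and when NBs were chosen on 50% of the UMIs and tested on the rest.

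The largest differences among the lower genes named by size were those of ct, lncRNA:CR43283 and hth. The homeodomain gene ct went from 176 to 6.26 CPM in experiment 1 and from 55.9 to 1.54 CPM in experiment 2 (-5.08 ± 0.14, edgeR adjusted p = 2.87e-73). The long non-coding RNA lncRNA:CR43283, also known as cherub, went from 1895 to 86.5 CPM and from 1133 to 70.1 CPM (-4.27 ± 0.10), and hth, the temporal factor of the youngest NBs, from 277 to 13.1 CPM and from 86.6 to 5.45 CPM (-4.21 ± 0.11). S-low values were higher in both libraries for each, with no overlap. Among NBs of the same leading factor the differences were smaller but still called, at -2.97 for ct, -3.46 for lncRNA:CR43283 and -1.89 for hth (edgeR adjusted p at most 3.8e-07). Because hth is itself a leading factor, its level is tied to that grouping. Its difference there does not show that age was held equal.

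All 6 markers of the neuroepithelium, from which NBs arise, were lower (crb, shg, l(1)sc, ogre, pnt and Ocho; median log2 fold change -3.20, beside 16.7% lower among all genes). The EGF receptor effector pnt went from 28.9 to 4.08 CPM and from 38.0 to 0.617 CPM, and Ocho, a Bearded family gene, from 40.6 to 3.54 CPM and from 49.1 to 0.206 CPM. E(spl)m4-BFM (-3.34) and E(spl)malpha-BFM (-2.92), Bearded family genes too, which act on Notch signalling, were lower. The first of these differed by -1.39 in experiment 1 and -5.09 in experiment 2, so that its size was uneven between libraries. Summed over the 6 markers the level was 867 CPM in S-low and 624 CPM in S-high NBs of experiment 1 and 740 and 526 CPM in experiment 2. These markers moved with hth, and their part in the other lower genes was not tested.

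The 8 neuron markers were lower as well (median -3.52, beside 16.7% lower among all genes), and here the libraries differed. The synaptic gene nSyb took 46.8 CPM in S-low and 2.45 CPM in S-high NBs of experiment 1, but 5.21 and 0.463 CPM in experiment 2, and the summed level of the 8 genes was 2245 and 1205 CPM against 1309 and 897 CPM. The zinc finger gene jim (712 to 20.1 CPM and 50.4 to 11.9 CPM, -3.47) and lncRNA:noe (2912 to 436 CPM and 351 to 252 CPM, -1.65) were high mainly in the S-low NBs of experiment 1. Without the cells with neuron genes, an alternative chosen after seeing the data, jim differed by -1.16, lncRNA:noe by -0.45 and the ELAV family gene fne by -0.69 instead of -1.60. In that alternative 49 replication genes were still called higher, with a median of 1.08.

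Genes of NB identity moved in both directions. The rule chose cells on dpn and mira, and of the 10 other genes 1 was higher, 5 were lower and 4 were not called, beside 14.4% higher and 16.7% lower among all genes. E(spl)mgamma-HLH, the Notch target whose reporter marked the NBs in the sort, went from 523 to 977 CPM in experiment 1 and from 536 to 1069 CPM in experiment 2 (0.89 ± 0.08, edgeR adjusted p = 6.72e-19). It was higher among NBs of the same leading factor too (0.73, adjusted p = 2.97e-06). SoxN, whose Gal4 line marked the medulla, was lower, with 637 and 295 CPM and 449 and 233 CPM (-1.08 ± 0.08), and by -0.61 within leading factors. The NB factors klu (-0.02) and wor (-0.06) were not called. As a description, dpn took 334 and 397 CPM in experiment 1, while experiment 2 gave 453 and 439 CPM, and the cargo adaptor mira 670 and 934 CPM and 668 and 832 CPM. The differentiation factor pros was called lower (-0.74), but this rests on experiment 1, where it took 2506 and 827 CPM, since it took 599 and 690 CPM in experiment 2.

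The stages, given by the leading factor of each NB, differed in how they fell over the score. Of the NBs led by hth 3.39% (2 of 59) in experiment 1 and 3.45% (3 of 87) in experiment 2 were S-high, and 42.4% and 50.6% were S-low. NBs led by ey, the next stage, were under 25%, the share of an equal spread, at both ends, with 17.1% and 15.3% S-high and 14.3% and 15.1% S-low. These NBs were deep, with medians of 38555 and 78494 UMIs, and the part of depth in their shares was not tested. NBs led by B-H1 were S-high in 39.5% (exact 95% interval 29.2% to 50.7%) and 41.1% (35.8% to 46.6%) of cases and S-low in 27.9% and 25.7%. NBs led by the slp genes were S-high in 25.3% and 24.4% of cases and S-low in 20.0% and 20.5%. NBs led by tll, the oldest stage left by the limit on gcm, were S-high in 25.0% and 42.2% and S-low in 40.6% and 36.3%. These were shallow, with medians of 11946 and 24509 UMIs, and the part of depth in their shares was not tested. The S-high share rose from hth through ey to the slp genes in both libraries, and the share of B-H1 lay above that of the slp genes. With D, the stage between the slp genes and B-H1, neither library rose at each stage. The share of D was above that of B-H1 in experiment 1 and below that of the slp genes in experiment 2. The libraries also disagreed at tll. The S-low share showed no steady trend with age. The libraries disagreed for D, with 40.0% and 23.4% S-high and 14.3% and 32.9% S-low. With all cells at 5000 UMIs the leading factor was read from the thinned UMIs too, so the NBs of a stage were not the same. There hth led 53 and 65 NBs, in place of 59 and 87. The S-high shares were then 9.43% and 9.23% for hth, 17.6% and 17.5% for ey and 29.4% and 26.5% for the slp genes. They were 35.5% and 22.1% for D, 35.3% and 37.1% for B-H1 and 22.7% and 31.9% for tll. In the same order of stages the S-low shares were 39.6% and 52.3%, 16.5% and 21.0%, and 21.2% and 20.5%. For D, B-H1 and tll they were 25.0% and 28.2%, 25.0% and 23.8%, and 18.2% and 36.1%.

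**Figure D4:**
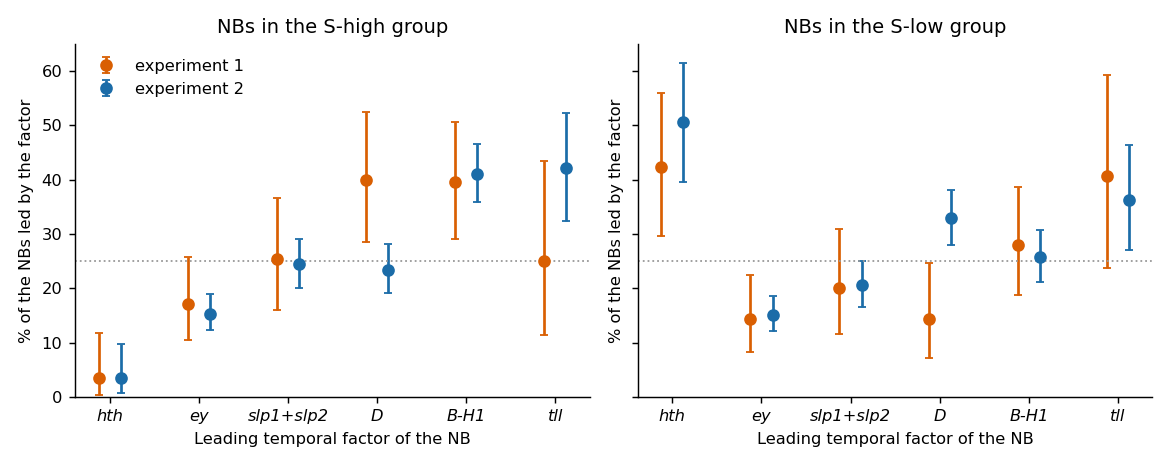
Share of the NBs led by each temporal factor (x axis, in order of age) that fell in the S-high (left) or S-low (right) group (y axis, %), in experiment 1 (orange) and experiment 2 (blue). Bars are exact 95% binomial intervals for counting error, and the dotted line at 25% is an equal spread; NBs led by hth were S-high in 3.39% and 3.45% of cases, NBs led by B-H1 in 39.5% and 41.1%.

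Of the 15 temporal factors other than gcm, which the rule for NBs capped, 3 were higher and 6 lower, beside 14.4% and 16.7% of all genes, so that the share of higher genes was near that of all genes. B-H2 (0.93; 37.5 to 56.0 CPM and 16.7 to 39.3 CPM) and scro (0.34; 486 to 689 CPM and 542 to 667 CPM) were higher. B-H1 was called higher (0.39), which rests on experiment 2 (49.4 and 79.3 CPM), since it took 85.7 and 89.5 CPM in experiment 1. Besides hth, dmrt99B (-0.50), erm (-1.03), Oaz (-0.32), hbn (-0.76) and nerfin-1 (-2.20) were lower. With S-high and S-low NBs chosen within each leading factor, 741 genes were higher (10.1%) and 793 lower (10.8%), and the replication lists kept 49 of 51 called higher, with a median of 1.00. Stg was higher by 1.26 in that comparison (edgeR adjusted p = 8.92e-09), and 24 mitotic control genes were higher and 2 lower.

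Of 84 tested cytoplasmic ribosomal protein genes 58 were lower and 0 higher, beside 16.7% and 14.4% of all genes. Their median log2 fold change was -0.21. None was called within leading factors, without the library block or with all cells at 5000 UMIs, where the median was -0.16, -0.21 and -0.13. In ribosome biogenesis 5 of 19 genes were lower (Fib, Nop56, nop5, Nop60B and Non1, from -0.26 to -0.52) and 0 were higher, beside 16.7% lower among all genes. The median of that list was -0.05, and within leading factors 2 were higher and 1 was lower. Of 13 tested heat shock genes 3 were lower, beside 16.7% lower among all genes, so that the count was near that share. They were Hsp67Bc (-2.07; 137 to 18.8 CPM and 31.5 to 11.4 CPM), Hsp68 (-0.78) and stv (-2.93; 10.3 to 1.90 CPM and 7.52 to 0.875 CPM). Hsp23, Hsp26, Hsp27 and Hsp83 were not called. Tpi, a glycolytic enzyme, was among the 12 genes that were lowest, from 80.5 to 17.7 CPM and from 77.1 to 18.5 CPM (-2.16 ± 0.11). Its difference was -0.71 within leading factors, and with all cells at 5000 UMIs it was -0.79 and not called (edgeR adjusted p = 0.053).

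Whether the difference between S-high and S-low NBs changed with age was asked with the 25% shares taken within early NBs (led by hth or ey) and late NBs (led by the slp genes, D, B-H1 or tll). Experiment 1 gave 41 early NBs in each group and 65 and 66 late NBs, and experiment 2 gave 142 and 143 early and 288 and 289 late NBs. The score itself spread more widely at the late stages. Without the lower and the upper 25% of NBs it ran from 1268 to 1858 CPM for ey and 1044 to 2494 CPM for B-H1 in experiment 1. Experiment 2 gave 1530 to 2287 CPM and 1282 to 3187 CPM. In both libraries this range was wider for each late factor than for hth or ey. The part of this wider spread in the interaction was not tested. The interaction was called for 27 of 7080 genes (0.381%), 19 with a larger log2 fold change in late NBs (0.268%) and 8 with a smaller one (0.113%), and 460 genes had an unadjusted p under 0.05. The 27 genes ordered the early and the late difference the same way in both libraries. Without the library block 0 genes were called in edgeR, with 130 at an unadjusted p under 0.05.

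Sld5, the GINS subunit, took 23.6 CPM in early S-low and 51.9 CPM in early S-high NBs of experiment 1, and 29.2 and 60.6 CPM in experiment 2. In late NBs it took 3.40 and 41.9 CPM, and 5.28 and 56.4 CPM. The late S-low values rest on few counts, 5 UMIs in experiment 1 and 62 UMIs in experiment 2. S-high levels were thus near each other at both ages, and S-low levels were far lower in late NBs (interaction 2.36 ± 0.22 on the log2 scale, edgeR adjusted p = 0.000273). Claspin went from 122 to 194 CPM and from 71.3 to 174 CPM in early NBs, and from 58.5 to 296 CPM and from 32.9 to 227 CPM in late NBs (1.59 ± 0.20, edgeR adjusted p = 0.00333). Mcm10 (1.24), Ctf4 (1.39) and CDC45L (0.92) were called in the same direction. Over the lists the median interaction was 0.20 for origin licensing, 0.44 for origin firing, 0.38 for the polymerases and 0.31 for the fork, beside 0.01 over all genes tested, and -0.04 for mitotic control. The temporal factors had a median interaction of -1.15, with 1 of 16 called. Members of that list defined the early and the late NBs, so this median is a description and not a result about them. The neuroepithelium markers had a median interaction of 0.75. Of these markers shg, the fly E-cadherin, was called (1.37 ± 0.20, edgeR adjusted p = 0.00704), with 193 and 48.2 CPM and 101 and 46.3 CPM in early S-low and S-high NBs, and 122 and 118 CPM and 75.8 and 72.2 CPM in late NBs. The part of these markers in the interaction was not tested.

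CycE and E2f1 went the other way. CycE took 640 and 1160 CPM in early S-low and S-high NBs of experiment 1 and 634 and 881 CPM in experiment 2, but 1724 and 1592 CPM and 1427 and 1222 CPM in late NBs (-0.83 ± 0.16, edgeR adjusted p = 0.0447). E2f1 took 1677 and 2205 CPM and 1287 and 1734 CPM in early NBs, and 2616 and 2049 CPM and 2036 and 1312 CPM in late NBs (-0.92 ± 0.14, edgeR adjusted p = 0.00704). In both libraries the S-high value was thus above the S-low value in early NBs and below it in late NBs, for each of the 2 genes. Of the genes with the smallest adjusted p, Obp99a, an odorant binding protein gene, took 265 and 6.42 CPM and 79.2 and 3.99 CPM in early S-low and S-high NBs and 23.8 and 22.2 CPM and 3.41 and 8.06 CPM in late NBs (5.33 ± 0.41). The genes chrb (1.13) and smal (-1.05) completed the 5 that the rule named. Early S-low NBs hold more NBs led by hth than early S-high NBs, and the part of this in the interaction was not tested.

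**Figure D5:**
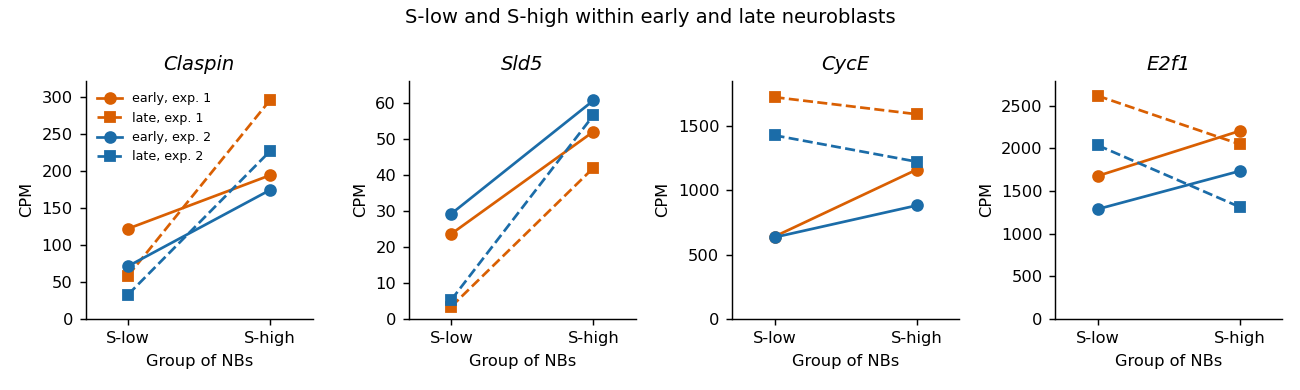
Levels (y axis, CPM) of Claspin, Sld5, CycE and E2f1 in S-low and S-high NBs (x axis) chosen within early (circles, solid lines) and late (squares, dashed lines) NBs of experiment 1 (orange) and experiment 2 (blue). For Claspin and Sld5 the late lines are steeper, and for CycE and E2f1 the S-high value lies above the S-low value in early NBs and below it in late NBs, in both libraries.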

How the data were processed

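The authors made each library with the 10x Genomics Chromium 3' kit, version 3, counted UMIs with Cell Ranger (3.0.1 and 3.1.0 per the file headers) on BDGP6, and deposited raw counts of UMIs for 17753 genes in each called cell, not normalized and not pooled. Here NBs were selected by the stated limits, with 38 mitochondrial genes. No doublet caller was run. The error after a fold change is the SE from edgeR. The 4 sums were tested in edgeR 4.0.16 (R 4.3.3) with TMM and filterByExpr, leaving 1 residual degree of freedom, so the spread comes almost wholly from all genes together (common dispersion 0.00528). An exact permutation test over 2 pairs cannot go below p = 0.5, so named values carry none. Both groups come from the same library, which pairs them (correlation of deviations 0.427 over 7215 genes), and the library was the block. The interaction fit has 8 sums and 3 residual degrees of freedom. On simulated counts for S-high against S-low the test recovered 79% of genes changed 1.5-fold and 100% of those changed 2-fold, with 2.19% of calls false. The simulation gave every gene the common dispersion and changed genes the same fold in both libraries. It left low counts out of the changed genes and did not choose cells from its own counts. Its false share therefore does not hold for the real calls. The genes named are the score genes, the members of the lists, the 12 called genes of largest change in each direction that moved alike in both libraries and reached 50 CPM on their higher side, and for the interaction the 5 of smallest adjusted p. Other interaction genes named belong to the lists. Markers and lists (origin licensing, origin firing, polymerases, fork, nucleotide supply, histones, G1/S control, mitotic control, cohesion and condensation, DNA damage, temporal factors, NB genes, ribosome biogenesis, ribosomal proteins, heat shock, mitochondrial genome, the study's S and G2/M genes) and the members were chosen with earlier results of these data known. The p-values are conditional on groups chosen from the same counts. Python 3.11.15 with numpy 2.4.6, scipy 1.17.1 and pandas 2.3.3 was used. Cell Ranger counted on an earlier annotation release than the one at hand, so no coordinates are given. Alternatives changed the block, scaling, tool, filter, sums, share of cells, depth, score, stage, and limits on cells.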

Additional observations from a re-analysis of the deposited data

How the results depend on the processing

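The counts of 1035 genes higher and 1203 lower moved with several settings. They were 76 and 47 without the library (replicate) block, and all of these were also called with it. They were 304 and 472 in DESeq2 (304 and 455 shared), 595 and 745 when NBs were chosen on 50% of UMIs and tested on the rest (584 and 723 shared), and 148 and 156 with every cell thinned to 5000 UMIs (147 and 153 shared). A mitochondrial limit of 20% gave 305 and 339, leaving out cells over 2 times the median UMIs gave 222 and 200, and groups chosen within the leading factor gave 793 lower. Groups chosen within the leading factor at 5000 UMIs, chosen after seeing the data, gave 196 and 216. The other settings stayed within 1.5 times of both counts. The interaction count of 27 was 0 without the block, 141 with no filter on low counts and 24 with DESeq2 size factors. The cause of these shifts was not tested. With cells high in gcm kept, E2f1 turned to 0.027 (edgeR adjusted p = 0.854) and Dref to -0.15 (adjusted p = 0.202). Leaving out 1 library leaves no residual degrees of freedom, so per-library folds carry no test. Without the block the median of the DNA damage list was 0.50 with 0 of 21 genes called, cohesion had 0 of 15, temporal factors 0 of 16, G1/S control 2 of 16, histones 3 of 12, and the neuron and neuroepithelium markers 1 each. Of 45 genes named with alternatives, 18 lost their call without the block and 4 in DESeq2. The replication lists kept between 28 and 50 of their 51 or 52 tested genes called higher, with medians of 0.89 to 1.34. The 2 libraries of 1 condition and their unequal depth limit all tests.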

Other observations

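Genes of the mitochondrial genome were slightly lower in S-high NBs, with a median of -0.18 on the log2 scale. Of 15 tested 5 were called lower and 0 higher, beside 16.7% and 14.4% of all genes. The 5 were mt:ATPase6, mt:ND5, mt:ND4, mt:lrRNA and mt:srRNA, from -0.20 to -0.24. No mitochondrial gene was called in edgeR among NBs of the same leading factor, where the median was -0.13. The NB filter is itself set on the mitochondrial share of UMIs.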
